A study of Mus musculus with 2 samples.

Results

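The genes described here are 10 transcripts of the CREB, CRTC and SIK families: the transcription factors Creb1, Crem and Atf1, the coactivators Crtc1, Crtc2, Crtc3 and Crebbp, and the salt-inducible kinases Sik1, Sik2 and Sik3. They were taken by gene symbol, and all 10 were found among the 23284 genes of the count files. The samples were 2 RNA-sequencing libraries from primary hepatocytes of C57BL/6 mice, which are freshly isolated parenchymal liver cells held in culture. One was labelled Lenti-sh Ctl (control lentivirus) and the other Lenti-sh JMJD3 (lentivirus expressing an shRNA against JMJD3, the H3K27 demethylase of histones, encoded by Kdm6b). In each group the cells were pooled from 5 mice, infected 24 h after plating, left with the virus for 48 h, and then kept for 6 h in 5 mM glucose with 10 µM forskolin, a drug that makes adenylyl cyclase produce cyclic AMP, as a model of fasting. Both groups received forskolin, so each difference below is between forskolin-treated cultures, and no culture without it was analysed here. By its title the study concerns JMJD3 in fasting and the oxidation of fatty acids in mitochondria, and the comparison asks how transcripts differ when JMJD3 is reduced.

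In the fasting liver, glucagon raises cyclic AMP and protein kinase A phosphorylates CREB1, CREM and ATF1, leucine zipper factors that bind cyclic AMP response elements in DNA. Their phosphorylated forms recruit the acetyltransferase CBP, encoded by Crebbp. The CRTC proteins are a second arm: SIK kinases phosphorylate them and hold them in the cytoplasm, and protein kinase A inhibits the SIKs so that CRTCs enter the nucleus and join CREB on genes such as those of gluconeogenesis. Sik1 and Crem are themselves textbook targets of CREB, and an internal promoter of Crem gives the short repressor ICER.

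The promoters of Sik3, Sik2 and Atf1 are shown first, since promoters are regions where CREB family factors can bind. RefSeq windows on GRCm38.p6 were used for 7 of the 10 genes (Atf1, Creb1, Crebbp, Crtc1, Crtc3, Sik2 and Sik3). No window of Crem, Crtc2 or Sik1 was searched, so whether their promoters hold half-sites was not tested. The 250 bases before the annotated start were searched on both strands for the half-site of the cyclic AMP response element, TGACG or its complement CGTCA, and for the full element TGACGTCA, which contains both half-sites. Capitals mark the half-sites, and each sequence is written 5′ to 3′ on the strand of its gene.
Sik3 (chr9:46012570-46012819, plus strand): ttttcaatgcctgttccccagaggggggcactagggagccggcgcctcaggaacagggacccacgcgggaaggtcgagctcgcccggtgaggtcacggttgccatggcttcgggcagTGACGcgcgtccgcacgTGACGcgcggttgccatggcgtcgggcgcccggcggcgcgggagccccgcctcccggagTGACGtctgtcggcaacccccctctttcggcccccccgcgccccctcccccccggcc
Sik2 (chr9:51009074-51009323, minus strand): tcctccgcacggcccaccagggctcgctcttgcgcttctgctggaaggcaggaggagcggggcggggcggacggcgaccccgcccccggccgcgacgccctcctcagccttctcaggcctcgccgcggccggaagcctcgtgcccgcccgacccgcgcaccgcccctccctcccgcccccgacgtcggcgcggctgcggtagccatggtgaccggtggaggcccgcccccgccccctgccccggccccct
Atf1 (chr15:100227609-100227858, plus strand): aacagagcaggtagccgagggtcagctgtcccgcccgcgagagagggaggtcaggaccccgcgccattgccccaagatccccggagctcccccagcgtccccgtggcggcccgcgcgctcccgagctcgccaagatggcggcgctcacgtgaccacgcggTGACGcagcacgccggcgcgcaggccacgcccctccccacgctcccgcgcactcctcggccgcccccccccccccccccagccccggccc
The Sik3 window held 3 half-sites, whose first letters lay 133, 116 and 57 bases before the start. The Atf1 window held 1, at 90 bases before the start, and the Sik2 window none, although 1 half-site lay in the 50 bases after the Sik2 start. The windows of Creb1, Crebbp, Crtc1 and Crtc3 held none. Among the 32851 windows of this length used as background, 17.8% held at least 1 half-site and 0.688% held 3 or more. The full element was in none of the 7 windows and in 1.55% of the background windows. These matches describe letters in GRCm38 windows, whereas the counts below use gene models of the older build mm9. Binding was not measured, and a link between half-sites and the differences below was not tested.

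The control library held 11099562 counts and the knockdown library 18334366, of which the 10 genes took 9119 and 9669. Levels are given as CPM, which divides each count by the scaled size of its library, and a gene was taken as measured when its mean over both libraries was at least 1 CPM, which left 12607 genes, all 10 among them. There was 1 library per group, so the spread between replicates is unknown and no difference below was tested against it. Intervals are exact 95% intervals of the counts and cover counting error only. The rule of size used to call a gene higher or lower asked for a difference of 1.5-fold or more together with a counting interval that did not include 1. Kdm6b itself was at 33.0 CPM in the knockdown library against 90.7 CPM in control, a ratio of 0.364 (0.329 to 0.403). Defining hepatocyte markers were partly missing, with 2 counts of Fabp1 in each library and 0 of Cyp2e1. Apoa1 was measured but low, at 3.29 CPM in control and 2.93 CPM in knockdown. Of the 6 measured hepatocyte markers 3 passed, all as lower: Alb at 1519 CPM in control and 794 CPM in knockdown, Ttr at 186 and 95.3 CPM, and Cps1 at 223 and 3.87 CPM. The summed hepatocyte markers were at 6575 CPM in control and 5394 CPM in knockdown, and at 2294 and 1140 CPM without Trf, which held most of the sum at 4282 and 4254 CPM. Of the 5 measured cholangiocyte markers 3 passed, all as higher, with sums of 7974 and 8283 CPM, or 179 and 272 CPM without the abundant Spp1. Krt19 and Sox9 only just met the rule, at log2 ratios of 0.595 and 0.592, and Krt7 at 1.65 rested on 25 and 126 counts. Epcam at 0.01 and Spp1 at 0.04 did not pass. None of the 5 measured macrophage markers passed, with sums of 151 and 128 CPM and 0 counts of Clec4f. Stellate cell or fibroblast markers had 1 of 5 lower, with sums of 178 and 187 CPM and at most 2 counts of Lrat in a library, and endothelial markers 2 of 6 lower, with sums of 50.3 and 42.9 CPM. In such bulk samples fewer cells of a type and less RNA per cell cannot be told apart, and the part of cell composition in the results below was not tested.

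Sik1, Crem and Sik3 were lower and Sik2 was higher in the knockdown library, while the other 6 genes stayed within the rule of size. The 3 lower genes of 10 stand against 12.8% of all measured genes that passed as lower, and the 1 higher gene against 15.3% that passed as higher. In the narrower set of 6297 genes between 21.2 and 145.7 CPM, the range of mean levels that the 10 genes cover, these shares were 9.27% and 13.8%. The 1 higher gene of 10 is near that background, and the 3 lower genes include Sik3, which just met the rule. The differences of Sik1 and Crem were far out among single genes: only 141 of 12607 measured genes had a lower ratio than Sik1 and 199 a lower ratio than Crem. For Sik2, 760 genes had a higher ratio.

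**Figure D1:**
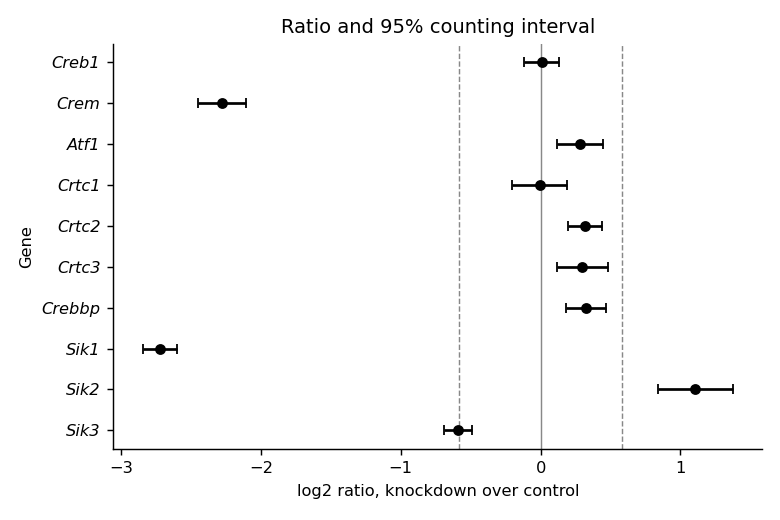
Log2 ratio of knockdown over control (x axis) for each of the 10 genes (y axis), with bars for the 95% counting interval and dashed lines at 1.5-fold. Sik1 at -2.72 and Crem at -2.28 lie far to the left, Sik2 at 1.10 to the right, and the interval of Sik3 at -0.59 straddles the dashed line.

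Among the transcription factors, Crem differed most. Crem (mm9, chromosome 18, 3266352 to 3337587, minus strand) had 1111 counts in control and 369 in knockdown, or 98.9 and 20.4 CPM. The knockdown library was low by 4.85-fold, with a log2 ratio of -2.28 (-2.45 to -2.11). Counts were summed over the whole gene of 12 exon blocks, so full-length CREM transcripts and ICER, which shares exons with them, were not separated.

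Creb1, the constitutive member that gives the family its name, stood at nearly the same level in both libraries. It lies on the plus strand of chromosome 1 from 64579378 to 64651122 and had 865 counts in control and 1400 in knockdown, or 77.0 and 77.3 CPM. The log2 ratio was 0.01 (-0.12 to 0.13). Creb1 has the longest exon sequence of the 10 genes, 8421 bp, and with the trend of the ratio over exon length across all genes removed its log2 ratio was -0.36, still under 1.5-fold.

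Atf1, the third factor, whose protein pairs with CREB1 and CREM, was slightly above control without passing. It lies on the plus strand of chromosome 15 from 100058290 to 100091679. Its 448 counts in control and 877 in knockdown corresponded to 39.9 and 48.4 CPM, a log2 ratio of 0.28 (0.12 to 0.45).

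The make-up of the CREB factors therefore differed between the libraries at nearly equal levels of Creb1. Levels between genes are compared here as CPM per kb of exon. In control Crem gave 48.9% of the summed level per kb of the 3 factors, Atf1 33.3% and Creb1 17.8%. In knockdown Atf1 gave 59.1%, Creb1 26.1% and Crem 14.7%. Which factor led in knockdown turned on the division by exon length, since in plain counts Creb1 held 52.9% there and Atf1 33.1%, against 35.7% and 18.5% in control. Crem went from first to last place, with and without that division, at 25.1 CPM per kb in control and 5.18 in knockdown. The ratio of Crem to Creb1, which needs no scaling between libraries, was 2.75 per kb in control and 0.564 in knockdown, a log2 difference of -2.28 (-2.50 to -2.07). This value still holds any trend over exon length. With that trend removed the log2 ratio was -2.38 for Crem and -0.36 for Creb1. The summed level of the 3 factors was 51.4 CPM per kb in control and 35.2 in knockdown, and without Crem it was 26.3 and 30.0.

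The CRTC coactivators, which SIK kinases keep in the cytoplasm, all stayed within 1.5-fold. Crtc2, the form best known in liver for fasting gluconeogenesis, lies on the plus strand of chromosome 3 from 90058203 to 90068047. It had 814 counts in control and 1634 in knockdown, or 72.4 and 90.2 CPM. Its log2 ratio was 0.32 (0.20 to 0.44), so that knockdown was above control by more than counting error but did not pass.

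Crtc3 (chromosome 7, 87731518 to 87833763, minus strand) was close to Crtc2 in its ratio. It had 372 and 736 counts, or 33.1 CPM in control and 40.6 CPM in knockdown, a log2 ratio of 0.30 (0.11 to 0.48). The log2 difference between the ratios of Crtc2 and Crtc3 was 0.02 (-0.20 to 0.24). Crtc1 (chromosome 8, 72906257 to 72963472, minus strand), best known from neurons, had 340 and 545 counts. At 30.3 CPM in control and 30.1 CPM in knockdown its log2 ratio was -0.01 (-0.21 to 0.19), and its counting interval included no difference.

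Within this family the proportions were close in both libraries. Crtc2 gave 70.0% of the summed CRTC level per kb in control and 72.1% in knockdown. Crtc3 gave 16.5% and 16.7%, and Crtc1 13.5% and 11.1%. Crtc2 was 5.17 times as abundant per kb as Crtc1 in control and 6.47 times in knockdown. That relation differed by 0.32 on the log2 scale (0.09 to 0.56). With the trend over exon length removed the log2 ratio was 0.35 for Crtc2 and -0.22 for Crtc1. The summed CRTC level was 39.4 CPM per kb in control and 47.6 in knockdown.

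Crebbp, which encodes the acetyltransferase CBP, had a ratio close to those of Crtc2 and Crtc3 before any adjustment for exon length. The gene is at 4084048 to 4213404 of chromosome 16, minus strand, and had 598 counts in control and 1208 in knockdown, or 53.2 and 66.7 CPM. The log2 ratio was 0.33 (0.18 to 0.47), above control without passing. With the trend of the ratio over exon length removed, it was 0.01 for Crebbp, against 0.35 for Crtc2 and 0.13 for Crtc3. Its paralog Ep300, the acetyltransferase p300, named here for that relation, stood at 119 CPM in control and 173 CPM in knockdown, a log2 ratio of 0.54 (0.45 to 0.64), also short of 1.5-fold. The ratio of Crebbp to Ep300 per kb was 0.522 in control and 0.449 in knockdown.

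**Figure D2:**
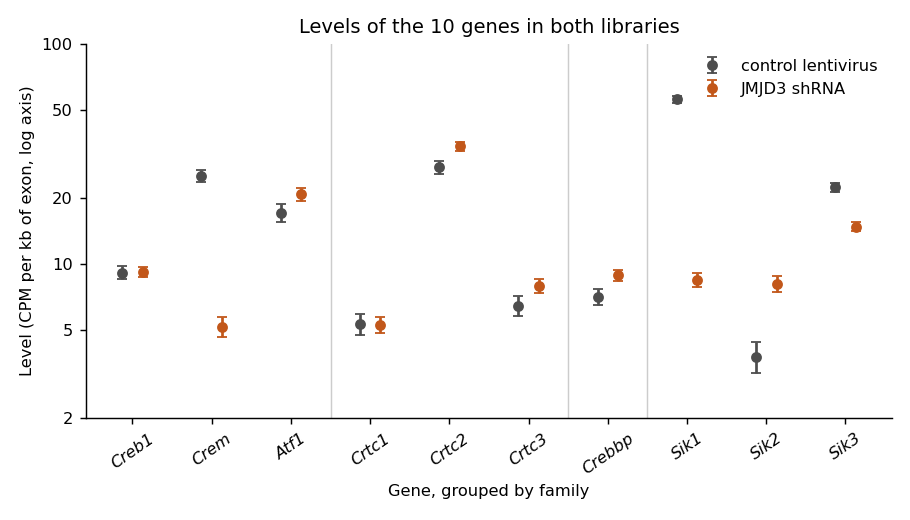
Level of each gene in CPM per kb of exon (log axis) in the control library (grey) and the knockdown library (orange), with bars for the exact 95% Poisson interval of the count and vertical lines between families. Sik1 is the highest point in control, at 56.1, and Crtc2 the highest in knockdown, at 34.3.

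The SIK kinases differed in both directions, and Sik1 had the largest difference of the 10 genes. Sik1, the form whose transcription cyclic AMP induces, is at 31981195 to 31992737 of chromosome 17, minus strand. It had 2844 counts in control and 694 in knockdown, or 253 and 38.3 CPM. The knockdown library was low by 6.60-fold, with a log2 ratio of -2.72 (-2.84 to -2.60).

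Sik2, a form described in adipose tissue and liver as a CRTC2 kinase, was the only one of the 10 genes to pass as higher. The gene is at 50700906 to 50817178 of chromosome 9, minus strand, and had 151 counts in control and 523 in knockdown, or 13.4 and 28.9 CPM. The log2 ratio was 1.10 (0.84 to 1.38), or 2.15-fold. Of its exon length 16.6% (589 bp) overlaps exons of Ppp2r1b, a phosphatase subunit on the other strand, and strand was not used in counting. Reads on that stretch fall on both genes and are left out by the default of the counting program. The Sik2 count is therefore incomplete and its level per kb uncertain. Ppp2r1b itself had a log2 ratio of -0.09. None of the other 9 genes shared exon sequence with another gene in the files.

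Sik3, the longest SIK transcript in the files, was lower by a margin that just met the rule of size. It lies on the plus strand of chromosome 9 from 45820903 to 46032277 and had 1576 counts in control and 1683 in knockdown, or 140.2 and 92.9 CPM. The log2 ratio was -0.59 (-0.69 to -0.49), a fold of 1.51, and part of its interval lay inside 1.5-fold. With the size factors of DESeq2 in place of TMM it was -0.58 and did not pass.

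The SIK family was therefore made up differently in the libraries. Sik1 gave 68.3% of the summed SIK level per kb in control and 27.1% in knockdown. Sik3 gave 27.1% and 47.1%, and Sik2 4.60% and 25.9%. These shares rest on the incomplete Sik2 count, so the order of Sik1 and Sik2 in knockdown is uncertain. Sik1 was thus the main SIK transcript only in control, and Sik3 led in knockdown. The ratio of Sik1 to Sik2 per kb was 14.8 in control and 1.05 in knockdown, a log2 difference of -3.83 (-4.12 to -3.53), on the Sik2 count that is incomplete. The ratio of Sik1 to Sik3 was 2.52 in control and 0.575 in knockdown, a log2 difference of -2.13 (-2.29 to -1.97). The summed level of the 3 kinases was 82.2 CPM per kb in control and 31.4 in knockdown, and without Sik1 it was 26.1 and 22.9.

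**Figure D3:**
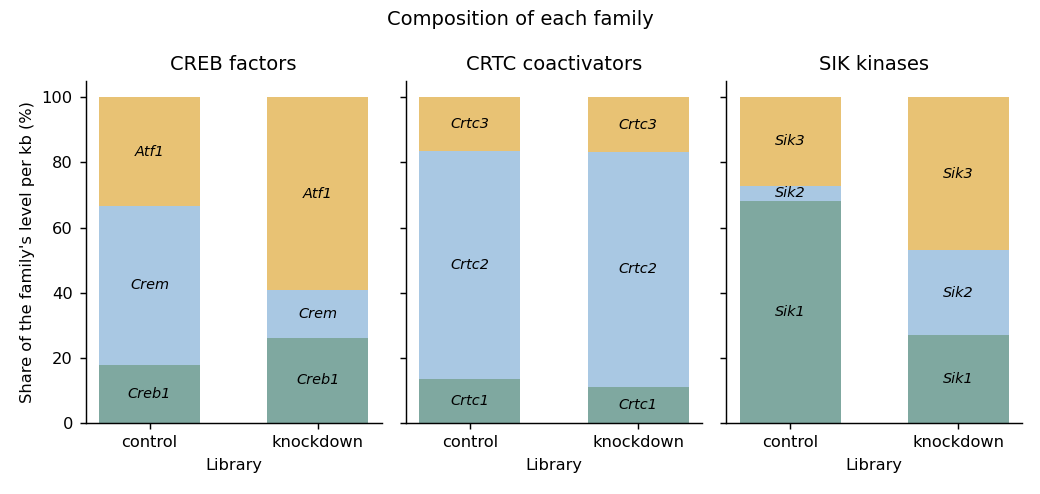
Share of each gene in the summed level per kb of its family (y axis, percent) in the control and knockdown libraries, as stacked bars for the CREB factors, CRTC coactivators and SIK kinases. Crem shrinks from 48.9% to 14.7% and Sik1 from 68.3% to 27.1%, while the CRTC bars look alike, with Crtc2 at 70.0% and 72.1%.

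The order of the 10 levels per kb also differed. In control Sik1 led at 56.1 CPM per kb, followed by Crtc2 at 27.5, Crem at 25.1, Sik3 at 22.3 and Atf1 at 17.1. Creb1 at 9.14, Crebbp at 7.09, Crtc3 at 6.48, Crtc1 at 5.33 and Sik2 at 3.78 made up the lower part. In that order the counting intervals of Crtc2 and Crem overlapped, as did those of Crebbp with Crtc3 and of Crtc3 with Crtc1. In knockdown Crtc2 led at 34.3, before Atf1 at 20.8 and Sik3 at 14.8. A group of 5 genes then lay close together, namely Creb1 at 9.18, Crebbp at 8.89, Sik1 at 8.50, Sik2 at 8.13 and Crtc3 at 7.95. In this group each neighbour overlapped the next. The Sik2 count is incomplete but was divided by its full exon length, so the place of Sik2 among these 5 is uncertain. Crtc1 at 5.30 and Crem at 5.18 came last and overlapped each other. Among all measured genes Sik1 stood at the 88.8th percentile of levels per kb in control and at the 41.0th in knockdown, and Crem at the 72.6th and the 30.0th.

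**Figure D4:**
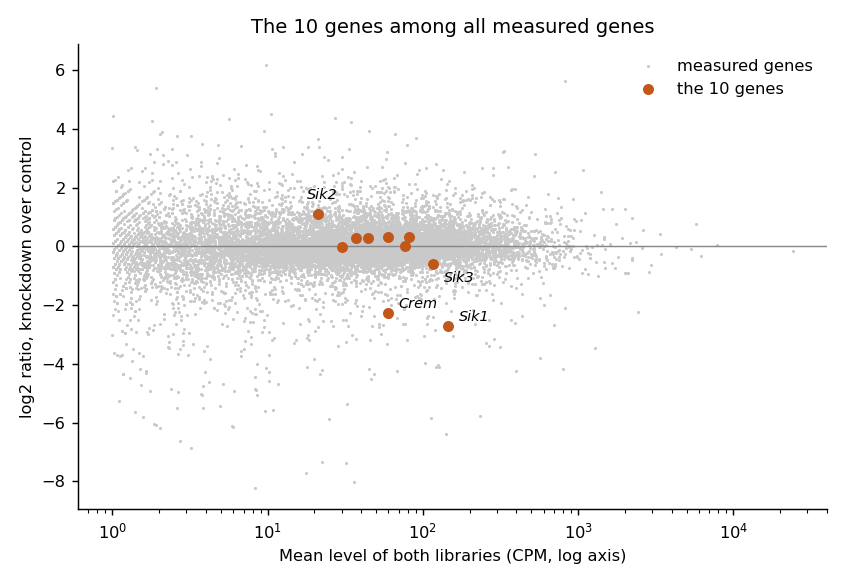
Log2 ratio of knockdown over control (y axis) against the mean level in CPM (x axis, log scale) for the 12607 measured genes (grey) and the 10 genes (orange, with the 4 that passed the rule of size named). Sik1 and Crem lie low in the cloud at their level, with ratios of -2.72 and -2.28, and the 6 unnamed genes lie inside it near 0.

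The authors' deposited table holds all 10 genes, and the sources used here do not state which test or assumed spread its p-values rest on. At an adjusted p-value threshold of 0.05 it calls 11.8% of its 12838 genes lower and 14.6% higher. Of the 10 genes the authors' deposited table calls 3 lower, 1 higher and the other 6 neither. The log2 fold change in the authors' deposited table was -2.72 for Sik1 (adjusted p-value 1.83e-31) and -2.28 for Crem (adjusted p-value 2.52e-21). Sik2 has 1.10 in the authors' deposited table (adjusted p-value 6.89e-05), and Sik3 has -0.59 (adjusted p-value 0.0228). For the other 6 genes the authors' deposited table has adjusted values of p from 0.281 for Crebbp to 1 for Creb1 and Crtc1. These come from the same 2 libraries and add no replicate.

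The enzymes and partners that act on CREB, CRTC and SIK proteins were mostly within the rule of size. Of 25 such genes, all measured, none passed as lower and 3 passed as higher, with a median log2 ratio of 0.16 against 0.00 for all measured genes, of which 12.8% were lower and 15.3% higher. The higher genes were Hdac7, a class IIa histone deacetylase of the kind that SIKs phosphorylate, at 45.9 CPM in control and 153 CPM in knockdown (log2 1.73), and Ywhah and Ywhag, which encode phosphoserine-binding proteins that retain phosphorylated CRTCs, at 1.09 and 0.68. Ywhag was named after its value was seen. By the mean level per kb of both libraries the most abundant were Ywhae at 0.26, Prkar1a, a regulatory subunit of protein kinase A, at -0.45, and Nono, an RNA-binding partner of CRTCs, at -0.07. Prkar1a and Strada, a partner of the SIK-activating kinase LKB1, had the lowest log2 ratios, Strada at -0.54, and neither passed. LKB1 itself, encoded by Stk11, was at -0.26, and the catalytic subunit gene Prkaca at 0.01; both were named after their values were seen.

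The related leucine zipper factors of other CREB and ATF subfamilies held Creb5 and Creb3l3 as the extremes in either direction. Of 12 sought, 11 were measured, with 5 higher, 1 lower and a median log2 ratio of 0.41, against 12.8% lower and 15.3% higher among all measured genes. The number higher was 3 under a 2-fold rule. Both this list and that of the partners above were chosen with earlier results of these libraries known, so their counts are no independent evidence. Creb5 was highest at 2.24, from 51 control and 389 knockdown counts, and Atf7 followed at 1.57. Creb3l3, which encodes the liver-enriched factor CREBH, was the lower gene at -1.45 (-1.74 to -1.15), with 22.9 CPM in control and 8.39 CPM in knockdown. Creb3l1 was next at -0.44 and did not pass. By the mean level per kb of both libraries the most abundant were Atf4, a factor of the integrated stress response, at 0.28, Creb3 at 0.78 and Atf2 at 0.41, of which Creb3 passed. The other 2 genes that passed as higher, named after their values were seen, were the stress-induced Atf3 at 1.12 and the endoplasmic reticulum stress sensor Atf6 at 0.69.

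Genes widely described as CREB targets, without Sik1 and Crem, were spread widely in both directions. The median log2 ratio of the 20 genes, all measured, was -1.10, and 11 of them passed as lower while 6 passed as higher, against 12.8% and 15.3% of all measured genes. The lowest were the orphan receptor Nr4a3 at -6.13 (-8.42 to -4.55), on 130 and 3 counts, and Tat, tyrosine aminotransferase, at -4.19. The highest were Fosb at 2.38 and Egr1 at 2.32, both immediate early genes that growth factor signals also induce. Tat, Dusp1, a phosphatase of MAP kinases, and Cited2, a CBP-binding protein, were the most abundant by the mean level per kb of both libraries, and Dusp1 was at -1.31 and Cited2 at 1.23. The phosphodiesterases Pde4b at -3.04 and Pde4d at -2.36, which degrade cyclic AMP, and the coactivator Ppargc1a at -1.04 were among the lower genes. Fos at 2.30, Junb at 1.76 and Per1 at 0.68 were among the higher genes. The gluconeogenesis genes Pck1 at -0.34 and G6pc at -0.32 did not pass, nor did Areg at 0.08. All of these were named after their values were seen. In this order Sik1 at -2.72 lay between Pde4b and Pde4d, and Crem at -2.28 between Pde4d and Gem at -1.81. Gem was also named after its value was seen. Whether Sik1, Crem and these targets differ for a shared reason was not tested. This list was chosen with earlier results of these libraries known, so its direction is no independent evidence.

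**Figure D5:**
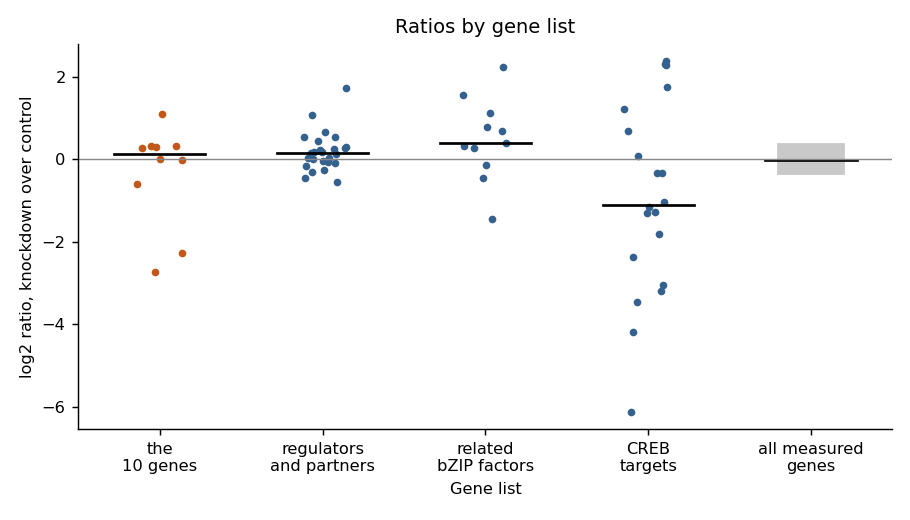
Log2 ratio of knockdown over control (y axis) for the measured genes of each list (points, with a black bar at the median) and for all measured genes (grey box from the lower to the upper quartile, -0.34 to 0.37). The CREB targets are spread from -6.13 to 2.38 around a median of -1.10, while the 25 regulators and partners cluster between -0.54 and 1.73.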

How the data were processed

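RNA from 1 control and 1 JMJD3 knockdown culture, each pooled from 5 mice, was sequenced in paired 100 bp reads, per the labels. Per gene the authors deposited raw read counts made with featureCounts 1.4.6-p4 on UCSC mm9 gene models, unstranded and with each read of a pair counted on its own, per the file headers. Reads that fall on several genes are left out by that program's default. STAR 2.5.3a, Trimmomatic 0.36 and edgeR are named in the submitters' processing notes. The authors' deposited table adds a log2 fold change, an average log2 CPM, a p-value and an adjusted p-value.

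From the counts, TMM factors (edgeR 4.0.16, R 4.3.3) and the ratio of knockdown over control without a pseudocount were computed, with exact conditional binomial 95% intervals (scipy 1.17.1). Mates of a pair and PCR copies are not independent, so these intervals are narrower than the true error. Zero counts were set to a floor of 3. Levels per kb used the deposited exon length in bp. Differences between ratios of 2 genes are conditional odds ratios with exact intervals, not corrected for the trend over exon length. The procedure was tested on simulated counts that held counting error only, the error that the intervals assume. That test cannot show how the calls behave under spread between replicates. All 10 members are named, and in each list the 3 most abundant per kb in the mean of both libraries, the 2 highest and the 2 lowest. The members and lists were chosen with earlier results of these data known. Alternatives covered scaling, the filter on low values, halved counts, exon length and a 2-fold rule. With 2 libraries a pattern is a single ratio, so no gene was named as most alike.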

Additional observations from a re-analysis of the deposited data

How the results depend on the processing

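Crem, Sik1 and Sik2 passed the rule of size in the same direction with library totals, DESeq2 size factors, upper quartile factors, halved counts and the exon-length trend removed, with log2 ratios from -2.38 to -2.27, from -2.86 to -2.71 and from 1.03 to 1.12. Sik3 ran from -0.85 to -0.58 and did not pass with DESeq2 size factors (-0.58), where the number of lower members was 2 instead of 3. The ratio of Creb1, near 0, changed sign with library totals (-0.0294), upper quartile factors (-0.0423) and the length trend removed (-0.36), and that of Crtc1 with DESeq2 size factors (0.00543). For Crebbp the log2 ratio ran from 0.01, with the length trend removed, to 0.34. Leaving out Sik2 for its overlap with Ppp2r1b, an alternative chosen after seeing the data, left 0 higher members. Upper quartile factors moved the number of lower regulators and partners from 0 to 1. A 2-fold rule left 2 lower and 1 higher member, 3 higher related factors, and 6.19% of all genes lower and 7.35% higher. The CREB targets had 11 lower and 5 higher under that rule and also with the length trend removed. A minimum mean of 5 CPM left 9 lower and 4 higher targets. With the length trend removed 4 related factors were higher. Without division by length Crem gave 45.8% of CREB factor counts in control and 13.9% in knockdown, and Sik1 62.2% and 23.9% of SIK counts, while Creb1 (35.7% and 52.9%) led the CREB factors in knockdown in place of Atf1 (18.5% and 33.1%). No paired analysis was possible because each group has 1 library, and for the same reason no replicate could be left out.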
